A study of Mus musculus with 10 samples.

Results

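The promoters of 6 FGF ligand genes (Fgf3, Fgf4, Fgf5, Fgf8, Fgf10 and Fgf15) and of the 4 FGF receptor genes (Fgfr1, Fgfr2, Fgfr3 and Fgfr4) were followed in mouse naïve extra-embryonic endoderm (nEnd), a culture that models the primitive endoderm (PrE) of the blastocyst. These 10 genes, chosen by name with earlier results of these data known, are 10 of the 21938 that GENCODE (M21) annotates as protein-coding. H3K4me3, a histone mark of active and poised promoters, was mapped with CUT&Tag, a method that tethers a transposase to antibody-bound chromatin. All cells came from 1 mouse embryonic stem cell line with an OCT4-mCherry reporter, grown without further treatment on mouse embryonic fibroblasts in RACL medium (RPMI with LIF, the GSK3 inhibitor CHIR99021 and Activin A). They were sorted on mCherry and on surface PDGFRA into Oct4+ nEnd (4 libraries), double-positive or DP nEnd (3 libraries) and Pdgfra+ nEnd (3 libraries). The line, the medium and the feeder cells were the same for all 3 populations, and each library measures a sorted population and not single cells. Fewer cells with a marked promoter and less mark in each cell cannot be told apart.

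FGF ligands bind receptor tyrosine kinases at the cell surface, with heparan sulphate or a Klotho protein as co-receptor. The receptor engages the adaptor FRS2 and signals through RAS and ERK, and the pathway induces its own inhibitors, the Sprouty, Spred and Dusp proteins. In the inner cell mass, FGF4 made by epiblast (Epi) precursors acts on FGF receptors of neighbouring cells and directs them to PrE.

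A gene was called marked where a peak met, by at least 1 bp, a promoter window around any of its annotated transcription start sites (TSS), with 1000 bp before and 100 bp after the start. The lists held 3477 to 10545 peaks per library and marked 18.3% to 50.8% of protein-coding genes, with the fewest in Oct4+ nEnd replicates 3 (3477 peaks) and 4 (4887 peaks). The coverage was not scaled between libraries, so each peak was given its percentile by total signal among the peaks of its own library (100 is the strongest, and 0 stands for no peak). The read depth is unknown. Pou5f1, the gene of OCT4, had percentiles of 99.3 to 99.9 in Oct4+ nEnd, 62.2 to 72.4 in DP nEnd and no peak in Pdgfra+ nEnd, whereas Pdgfra was at 99.8 or above in all DP and Pdgfra+ nEnd libraries. Of the Oct4+ nEnd libraries, 1 of 4 (replicate 1) also had a Pdgfra peak, at 15.7. All 7 Epi markers examined were marked in every Oct4+ nEnd library, against 4 to 6 in DP nEnd and 0 to 3 in Pdgfra+ nEnd. Of 8 PrE markers 7 or 8 were marked in each DP and Pdgfra+ nEnd library, against 0 to 3 in Oct4+ nEnd. Of 15 fibroblast markers, 0 or 1 was marked in Oct4+ nEnd, 0 to 2 in DP nEnd and 0 to 3 in Pdgfra+ nEnd, and 12 of the 15 had no peak in any library. The 3 with peaks, named after their values were seen, were Twist1 (in 2 Oct4+, 2 DP and 1 Pdgfra+ nEnd library, at 13 or below), Tbx15 (1 DP and 1 Pdgfra+ nEnd library, at 14.1 or below) and Fbn1 (1 Pdgfra+ nEnd library, at 8.89).

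The promoter sequences of 5 of the genes are shown because H3K4me3 sits mostly on promoters rich in CpG, and these promoters differ in both. Each runs from 250 bases before to 50 bases after a RefSeq start (GRCm38.p6) on the strand of the gene, with every CpG in capitals. The Fgf4 sequence is chr7:144861136-144861435, plus strand, and was covered whole by a peak in 4 of 4 Oct4+ nEnd libraries and in 0 of the 6 others. The Fgf10 sequence is chr13:118714449-118714748, plus strand, and the Fgfr3 sequence is chr5:33722056-33722355, plus strand. Both were covered whole in all 6 DP and Pdgfra+ nEnd libraries and in 0 of 4 Oct4+ nEnd libraries. The Fgfr2 sequence is chr7:130266759-130267058, minus strand, covered in 6 libraries. The Fgf5 sequence is chr5:98253934-98254233, plus strand, covered in none.
Fgf4: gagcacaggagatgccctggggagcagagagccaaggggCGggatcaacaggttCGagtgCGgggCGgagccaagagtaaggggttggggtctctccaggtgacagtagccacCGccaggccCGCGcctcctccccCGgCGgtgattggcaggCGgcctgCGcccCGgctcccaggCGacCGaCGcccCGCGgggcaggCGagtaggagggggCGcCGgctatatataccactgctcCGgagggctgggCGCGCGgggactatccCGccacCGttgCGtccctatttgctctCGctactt
Fgf10: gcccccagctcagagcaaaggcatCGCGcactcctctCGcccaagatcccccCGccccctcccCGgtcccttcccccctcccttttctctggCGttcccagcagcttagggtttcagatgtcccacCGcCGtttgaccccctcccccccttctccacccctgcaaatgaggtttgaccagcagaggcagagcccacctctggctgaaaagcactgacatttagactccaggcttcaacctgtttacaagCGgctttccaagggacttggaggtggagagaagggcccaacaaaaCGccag
Fgfr3: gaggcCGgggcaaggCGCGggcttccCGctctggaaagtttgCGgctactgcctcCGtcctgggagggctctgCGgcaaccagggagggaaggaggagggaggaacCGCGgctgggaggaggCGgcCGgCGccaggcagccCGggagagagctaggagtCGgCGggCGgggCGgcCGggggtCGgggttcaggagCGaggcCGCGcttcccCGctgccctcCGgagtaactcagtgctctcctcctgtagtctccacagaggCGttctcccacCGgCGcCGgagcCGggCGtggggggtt
Fgfr2: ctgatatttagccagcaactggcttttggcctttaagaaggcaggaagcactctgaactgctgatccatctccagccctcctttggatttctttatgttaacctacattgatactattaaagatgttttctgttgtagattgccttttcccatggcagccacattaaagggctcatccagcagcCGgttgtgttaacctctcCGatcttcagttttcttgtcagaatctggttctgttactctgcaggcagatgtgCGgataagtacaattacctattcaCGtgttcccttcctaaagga
Fgf5: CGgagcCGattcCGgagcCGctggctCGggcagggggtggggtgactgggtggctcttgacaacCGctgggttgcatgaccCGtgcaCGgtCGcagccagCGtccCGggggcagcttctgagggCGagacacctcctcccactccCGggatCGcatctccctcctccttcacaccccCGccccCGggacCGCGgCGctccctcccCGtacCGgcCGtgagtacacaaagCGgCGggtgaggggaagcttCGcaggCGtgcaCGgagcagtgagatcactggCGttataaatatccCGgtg
The Fgf5 and Fgf4 sequences held 29 and 28 CpG, and that of Fgfr3 held 30, all far above the median of 7 over 32817 RefSeq promoters of this length. Fgf10 held 10 CpG and Fgfr2 held 4. Over all promoters, the third richest in CpG (16 to 67) met a peak in 33.2% to 82.7% of cases depending on the library, and the third poorest (0 to 4) in 0.728% to 2.87%. The Fgf5 sequence, rich in CpG, had no peak in any library. The Fgfr2 sequence, poor in CpG, lies at the upstream edge of its peak, whose highest coverage was further downstream, so its CpG count does not describe the whole marked region. Entries for Fgf8, Fgf15 and Fgfr1 were missing from the sequence table.

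Of the 10 genes, replicates 1 and 2 of Oct4+ nEnd each had 3 marked, and replicates 3 and 4 had 2. In DP nEnd 4, 5 and 3 were marked (replicates 1 to 3), and in Pdgfra+ nEnd 6, 3 and 4. The means of 2.5, 4 and 4.33 of 10 genes (Oct4+, DP and Pdgfra+ nEnd) lay near the mean shares of all protein-coding genes marked, 31.6%, 41.8% and 41.3%. These counts and shares include windows shared with another protein-coding gene, and Fgfr2 has such a start, shared with Ctbp2. Without shared windows the counts were 3, 3, 1 and 1 in Oct4+ nEnd (replicates 1 to 4). They were then 4, 5 and 3 in DP nEnd and 6, 2 and 3 in Pdgfra+ nEnd (replicates 1 to 3). Oct4+ nEnd differed from the 2 other populations in which genes of the set it marked. Fgf4 and Fgfr1 had a promoter peak only in Oct4+ nEnd libraries, and Fgf10, Fgfr3 and Fgfr4 only in DP and Pdgfra+ nEnd libraries. The authors' consensus lists, 1 per population, gave the same division. They are built from the peaks of these same libraries, so this was fixed in advance and adds no support. The DP and Pdgfra+ nEnd lists were rebuilt exactly from regions shared by at least 2 of replicates 1 to 3. The Oct4+ nEnd list was rebuilt exactly (7860 of 7860 peaks) from regions shared by at least 2 of replicates 1, 2 and 4, so replicate 3 did not enter it. The lists placed Fgf4, Fgfr1 and Fgfr2 in Oct4+ nEnd, and Fgf10, Fgfr2, Fgfr3 and Fgfr4 in both DP and Pdgfra+ nEnd. In the Pdgfra+ nEnd list Fgfr2 had a peak only at the start shared with Ctbp2.

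**Figure D1:**
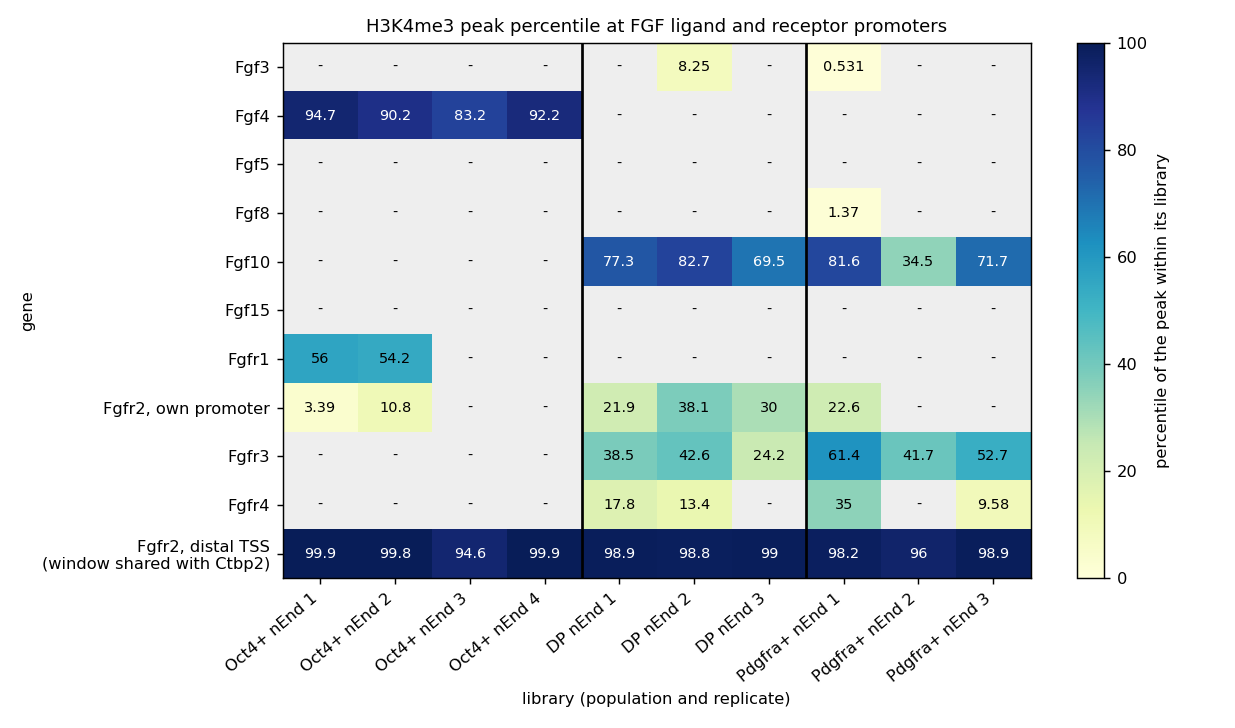
Percentile of the H3K4me3 peak at each FGF ligand and receptor promoter (rows) in each of the 10 libraries (columns, grouped by population), on a colour scale from 0 to 100. A dash on grey is no peak, and Fgfr2 is split into its own promoter and the distant start that shares its window with Ctbp2. Fgf4 fills the 4 Oct4+ nEnd columns only, at 83.2 to 94.7, while Fgf10 and Fgfr3 fill the 6 other columns only.

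Among the ligands, Fgf4 carried the strongest peaks. Its percentiles in Oct4+ nEnd were 94.7, 90.2, 83.2 and 92.2 in replicates 1 to 4, and the promoter had no peak in any DP or Pdgfra+ nEnd library. Every Oct4+ nEnd library was therefore above every other library, including replicate 3 with its 3477 peaks. The peaks were 9558, 5724, 5077 and 6701 bp wide, at width percentiles of 84.5 to 95.5 within their libraries, and their highest coverage was 1.42 to 1.61 times the median peak of the library. The point of highest coverage lay 52 to 569 bp downstream of the start at 144861386 of chromosome 7. In Oct4+ nEnd replicate 1 the peak reached 5066 bp upstream, whereas in replicate 3 it ended 1272 bp upstream. A second annotated start of Fgf4, at 144847367, was not marked in any library.

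The mean percentile of Fgf4 was 90.1 ± 4.95 (SD, n = 4) in Oct4+ nEnd against 0 in DP nEnd and in Pdgfra+ nEnd (n = 3 each). The exact two-sided permutation test gave p = 0.0286 for either pair, the smallest value that 4 against 3 libraries allow. Adjusted over all genes (Benjamini-Hochberg) it was 0.230 for the comparison with DP nEnd and 0.239 for that with Pdgfra+ nEnd. No gene passed 0.05 after adjustment in any of the 3 pairs, and 1320, 1387 and 0 genes had an unadjusted exact permutation p under 0.05 (Oct4+ against DP, Oct4+ against Pdgfra+, DP against Pdgfra+ nEnd). limma, which borrows the spread from all genes, gave a difference of 90.1 ± 8.92 percentiles (SE) and an adjusted p of 0.00194 against DP nEnd. Against Pdgfra+ nEnd its adjusted p was 0.00518.

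Fgf10, a ligand best known from epithelial and mesenchymal signalling in organ buds, showed the opposite division. Its percentiles were 77.3, 82.7 and 69.5 in DP nEnd and 81.6, 34.5 and 71.7 in Pdgfra+ nEnd, and no Oct4+ nEnd library had a peak. All 6 libraries were thus above all 4 of Oct4+ nEnd, and Pdgfra+ nEnd replicate 2 was far below the other 5. The difference in limma was 76.5 ± 8.47 percentiles (SE) higher in DP than in Oct4+ nEnd (adjusted p = 0.00194) and 62.6 ± 13.6 higher in Pdgfra+ than in Oct4+ nEnd (adjusted p = 0.0383). The exact permutation p was 0.0286 in both pairs, with adjusted values of 0.230 and 0.239.

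The Fgf10 peaks ranked lower by height than by total signal. Their highest coverage was 0.74 to 1.03 times the median peak in DP nEnd and 0.552 to 1.06 times in Pdgfra+ nEnd, which put them by height alone at percentiles of 25.5 to 52.6 and 3.92 to 54.9. They measured 6609, 7304 and 4875 bp in DP nEnd and 4377, 2305 and 4218 bp in Pdgfra+ nEnd. In bp, every DP nEnd peak was wider than every Pdgfra+ nEnd peak, and reached 3270 to 5621 bp against 1388 to 2827 bp downstream of the start. Peaks in general differed in width between these libraries, with medians of 4031, 4222.5 and 3581 bp in DP and 3786, 2204.5 and 3032.5 bp in Pdgfra+ nEnd. As width percentiles within a library the Fgf10 peaks overlapped, at 90.2, 91.4 and 80.5 in DP and 65.9, 55.6 and 84.5 in Pdgfra+ nEnd. For the width in bp the exact permutation p was 0.10, the smallest that 3 against 3 libraries allow, and 12.4% of all genes with a peak were likewise wider in DP nEnd without overlap. The window of the start at 118714699 of chromosome 13 also meets Gm16263, an antisense gene, and peaks carry no strand. The 2 other annotated starts of Fgf10, at 118669791 and 118669824, had no peak. Embryonic mesenchyme is a known source of Fgf10, and the cultures held feeder fibroblasts. Fgf10 was at 82.7, 81.6 and 77.3 in the libraries with 2, 3 and 1 of 15 fibroblast markers marked (DP nEnd replicate 2, Pdgfra+ nEnd replicate 1 and DP nEnd replicate 1). It was at 71.7, 69.5 and 34.5 in those with 0 (Pdgfra+ nEnd replicate 3, DP nEnd replicate 3 and Pdgfra+ nEnd replicate 2). Oct4+ nEnd replicates 1 and 2 also had 1 fibroblast marker marked each, and no Fgf10 peak. The part of feeder cells in the Fgf10 peak was not tested.

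The other ligands had little or no mark. Fgf3, which lies next to Fgf4 on chromosome 7, had a weak peak in DP nEnd replicate 2 (percentile 8.25) and in Pdgfra+ nEnd replicate 1 (0.531). Those were the 2 libraries with the highest median peak coverage (144 and 143). Fgf8, a ligand of gastrulation, had a peak in Pdgfra+ nEnd replicate 1 (1.37) and in no other library, while the promoter of its neighbour Npm3, within 10000 bp, was marked in 8 of 10 libraries. Fgf5, a marker of the postimplantation Epi, and Fgf15, the endocrine ligand of the ileum, had no peak in any of the 10 libraries. Fgf15 is the third gene of the Fgf3 and Fgf4 cluster, so within that cluster only Fgf4 was marked in Oct4+ nEnd.

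**Figure D2:**
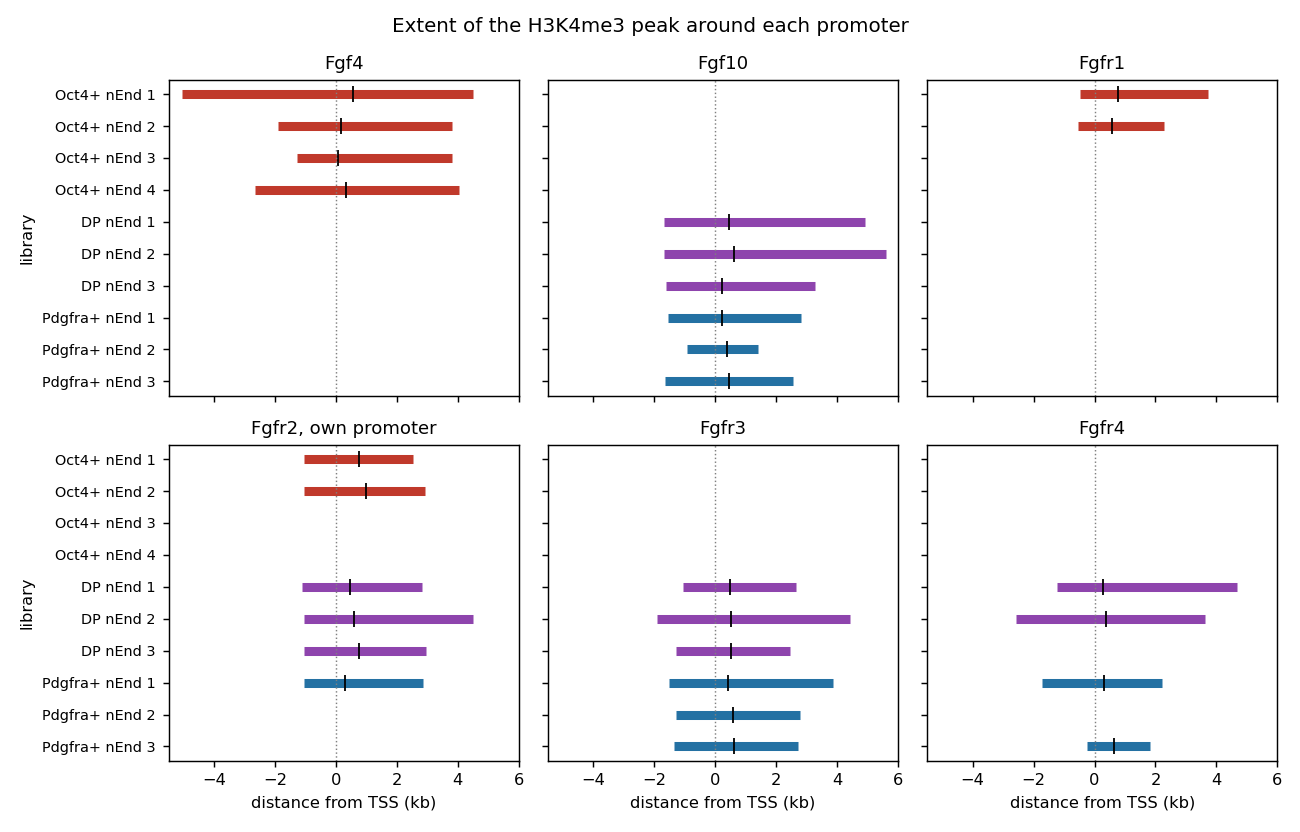
Extent of the H3K4me3 peak around 6 promoters, as distance in kb from the most upstream annotated start that the peak meets (dotted line, with the gene body to the right), for each library. Bars span the peak in the colour of its population (red Oct4+, purple DP, blue Pdgfra+ nEnd) and the black tick is the point of highest coverage, which lay downstream of the start in every peak drawn. Fgf10 peaks reach 3270 to 5621 bp into the gene in DP nEnd and 1388 to 2827 bp in Pdgfra+ nEnd.

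Among the receptors, Fgfr3 separated the populations as Fgf10 did, with weaker peaks. Its percentiles were 38.5, 42.6 and 24.2 in DP nEnd and 61.4, 41.7 and 52.7 in Pdgfra+ nEnd, and Oct4+ nEnd had no peak in 4 of 4 libraries. The ranges of DP and Pdgfra+ nEnd overlapped by 1 library on each side. In limma, Fgfr3 was 35.1 ± 5.27 percentiles (SE) higher in DP than in Oct4+ nEnd (adjusted p = 0.0051) and 51.9 ± 9.2 higher in Pdgfra+ than in Oct4+ nEnd (adjusted p = 0.0196). Pdgfra+ nEnd was on average 16.8 percentiles above DP nEnd, which did not pass (exact permutation p = 0.20, adjusted p = 1). The peak covered 8 annotated starts of Fgfr3, from 33721674 to 33723772 of chromosome 5, and the 6 starts further inside the gene were bare. It also meets G630022F23Rik, a transcript without an assigned class.

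The absence of Fgfr3 in Oct4+ nEnd was seen in replicates 1 and 2, which held 9144 and 8098 peaks, within the range of the DP and Pdgfra+ nEnd libraries. Where it was present, the Fgfr3 peak ranked from 3693 to 5745 in its library, which lies beyond the length of the list of replicate 3 (3477) and in part of replicate 4 (4887). When each library was reduced to its 3477 strongest peaks, Fgf4 was still separated in both pairs with Oct4+ nEnd, Fgf10 only against DP nEnd, and Fgfr3 in neither.

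Fgfr4, a receptor that works with Klotho beta, had percentiles of 17.8 and 13.4 in DP nEnd replicates 1 and 2 and of 35 and 9.58 in Pdgfra+ nEnd replicates 1 and 3. It had no peak in the 6 remaining libraries, all 4 of Oct4+ nEnd among them. Its groups overlapped through the libraries without a peak, and no pair passed (exact permutation p = 0.143 for Oct4+ against DP and against Pdgfra+ nEnd). In DP nEnd the peaks were 5896 and 6224 bp wide and in Pdgfra+ nEnd 3938 and 2088 bp. The DP nEnd peaks were wide and low, at percentiles of 84.5 and 85.1 by width and 12.1 and 14.6 by highest coverage.

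Fgfr1, a receptor of both Epi and PrE precursors in the blastocyst, was marked at 56.0 and 54.2 in Oct4+ nEnd replicates 1 and 2 and had no peak in replicates 3 and 4 or in any DP or Pdgfra+ nEnd library. With 2 of 4 libraries against 0 of 3 the groups overlapped, and Fisher's exact test gave p = 0.429 for each pair. The 6 DP and Pdgfra+ nEnd lists without it held 6510 to 10545 peaks. In the 2 libraries that had it the peak ranked 4020 and 3708. These ranks lie beyond the 3477 peaks of replicate 3 but within the 4887 of replicate 4. The peaks spanned the 7 starts from 25518759 to 25519837 of chromosome 8. In Oct4+ nEnd replicate 1 a further peak of 8388 bp (percentile 54.5) lay inside the gene, from 25542142 to 25550529, at no annotated start.

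Fgfr2, a receptor enriched in PrE precursors, was marked in 10 of 10 libraries, but at 2 places. GENCODE gives it 27 transcripts with 14 starts, of which 1 transcript begins 2.86 Mb upstream of the next start, at 133123350 of chromosome 7. That start lies 2 bp from a start of Ctbp2, a transcriptional corepressor, and 11 Ctbp2 starts are within 1000 bp. The peak there had percentiles of 99.9, 99.8, 94.6 and 99.9 in Oct4+ nEnd, 98.9, 98.8 and 99.0 in DP nEnd and 98.2, 96.0 and 98.9 in Pdgfra+ nEnd. Its signal cannot be assigned to Fgfr2 rather than Ctbp2. The width there was 29165, 17268, 4638 and 26053 bp in Oct4+ nEnd, and 7018 to 14776 bp in DP and 3973 to 8902 bp in Pdgfra+ nEnd.

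At its own promoter, where 5 starts lie between 130263975 and 130266263, Fgfr2 had percentiles of 3.39 and 10.8 in Oct4+ nEnd replicates 1 and 2 and no peak in replicates 3 and 4. The values were 21.9, 38.1 and 30 in DP nEnd, and in Pdgfra+ nEnd only replicate 1 had a peak (22.6). DP nEnd was therefore above all Oct4+ nEnd libraries, and Pdgfra+ nEnd spanned both. With the windows shared by other protein-coding genes left out, the mean was 3.56 ± 5.11 (SD, n = 4) in Oct4+ nEnd, 30 ± 8.12 (n = 3) in DP nEnd and 7.55 ± 13.1 (n = 3) in Pdgfra+ nEnd. The exact permutation p for Oct4+ against DP nEnd was 0.0286 and the adjusted p 0.206, and DP against Pdgfra+ nEnd gave 0.20. The start used by 13 of the transcripts, at 130261857, fell inside the peak only in DP nEnd replicate 2, where the peak was widest (5563 bp). Seen by consensus list, the own promoter was present in Oct4+ and DP nEnd and not in Pdgfra+ nEnd.

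**Figure D3:**
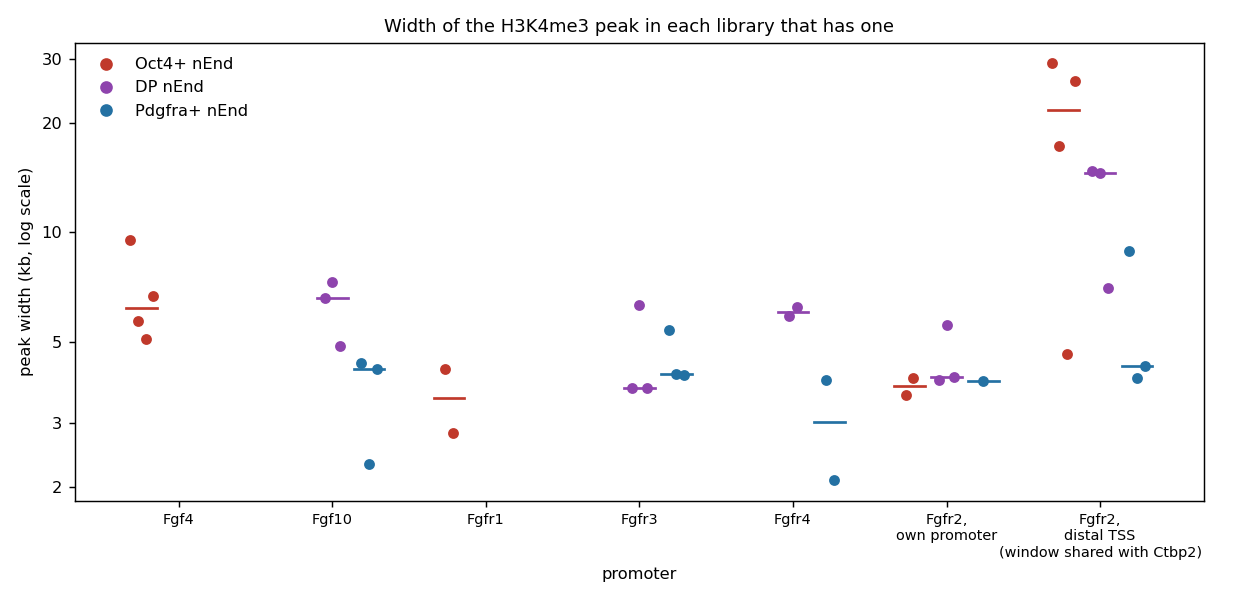
Width of the H3K4me3 peak (kb, log scale) at each promoter, 1 point per library that has a peak, with a line at the median of the population (red Oct4+, purple DP, blue Pdgfra+ nEnd). At Fgf10 the 3 DP nEnd points (4875 to 7304 bp) lie above the 3 Pdgfra+ nEnd points (2305 to 4377 bp), although they overlap as width percentiles within a library, and the distant Fgfr2 start that shares its window with Ctbp2 has the widest peaks, up to 29165 bp.

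Over the set, the percentiles of 3 genes did not overlap between Oct4+ and DP nEnd (Fgf4 higher, Fgf10 and Fgfr3 lower in Oct4+ nEnd), where 7 of the 10 had a peak in at least 1 of these libraries. Among all 10603 genes with a peak in that pair, 30.2% were separated in the same sense, 4.62% higher in Oct4+ and 25.6% higher in DP nEnd. The same 3 genes were separated between Oct4+ and Pdgfra+ nEnd (8 of 10 with a peak), against 23.5% of 11614 genes (4.62% higher in Oct4+ and 18.8% higher in Pdgfra+ nEnd). With so few genes, 3 of 7 and 3 of 8 are not set apart from these shares. A peak in every Oct4+ nEnd library and in no DP nEnd library, as at Fgf4, was found at 0.415% of genes, and at 0.672% with Pdgfra+ nEnd in the place of DP nEnd. The reverse, as at Fgf10 and Fgfr3, was found at 3.99% for DP and 2.69% for Pdgfra+ nEnd. In limma the 3 genes passed in both pairs, against 10.6% and 5.62% of all genes. The set is small and was chosen with earlier results of these data known, so this count is not read as a trait of the set. Between DP and Pdgfra+ nEnd no member was separated, against 7.59% of 11222 genes. There limma called 0 of all genes, with 453 genes at an unadjusted p under 0.05. The 2 pairs with Oct4+ nEnd share its 4 libraries, so they are not independent.

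The genes whose percentiles over the 10 libraries were nearest to those of Fgf4, by mean absolute difference, were Tdgf1 (1.47 percentiles), the Nodal co-receptor, Hsd17b14 (2.06) and Gli2 (2.27). For Fgf10 they were Cnppd1 and Retreg2 (3.32 each, with 1 shared promoter peak) and Sox7 (3.88), a PrE transcription factor. For Fgfr3 they were Sdcbp (2.32), Kitl (2.58), the ligand of KIT, and Slco2a1 (2.63).

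The remaining pathway was described by lists of known genes. Of 16 other FGF ligand genes, 11 had no peak in any library, and 0 to 2 were marked per Oct4+ nEnd library, 2 or 3 per DP and 1 to 5 per Pdgfra+ nEnd library. Fgf20 was the strongest, at 57.5 to 60.8 in DP nEnd, 63.3 to 67.7 in Pdgfra+ nEnd and at 47.7 or below in Oct4+ nEnd. It was separated in all 3 pairs but passed limma in none (adjusted p = 0.167, 0.166 and 0.93). Separation in these directions was found at 25.6%, 18.8% and 4.81% of all genes. Of 7 co-receptors and related surface proteins, 2 to 4 were marked in Oct4+ nEnd, 6 in each DP and 4 to 6 in each Pdgfra+ nEnd library. Klb, the co-receptor of FGFR4 for the endocrine ligands, had no peak in Oct4+ nEnd, 55.8 to 68.3 in DP nEnd and a peak in 2 of 3 Pdgfra+ nEnd libraries. The glypican Gpc3 had no peak in Oct4+ nEnd either, and was at 28.0 to 30.8 in DP nEnd and 7.08 to 50.3 in Pdgfra+ nEnd. Both passed limma against DP nEnd (adjusted p = 0.00197 for Klb and 0.00194 for Gpc3), where 10.6% of all genes did. No gene of the list passed in the other pairs, although Gpc3 was above Oct4+ nEnd in all 3 Pdgfra+ nEnd libraries. By separation, 2 of 6 genes with a peak were higher in DP than in Oct4+ nEnd and 1 of 6 was higher in Pdgfra+ nEnd, against 25.6% and 18.8% of all genes, so these counts do not set the list apart. Over the 6 genes of the list with a peak in the pair, the median difference between Oct4+ and DP nEnd was -25 percentiles, against -9.05 over all genes with a peak.

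Of 18 adaptor, RAS and ERK genes, 16 were marked in every DP nEnd library, 16 to 18 in Pdgfra+ nEnd and 10 to 17 in Oct4+ nEnd. The adaptor gene Shc1 was at 97.1 to 98.6 in Oct4+ nEnd, 97.9 to 99.2 in DP nEnd and 94.5 to 98.8 in Pdgfra+ nEnd. Frs2, Gab1, Sos1 and Sos2, named after their values were seen, were higher without overlap in DP and in Pdgfra+ nEnd than in Oct4+ nEnd. In all, 4 of 17 genes with a peak were so separated in DP nEnd and 5 of 18 in Pdgfra+ nEnd, against 25.6% and 18.8% of all genes, so the list is not set apart. No gene of this list passed limma in any pair, and the median difference of the 17 with a peak, -12.3 percentiles between Oct4+ and DP nEnd, lay near that of all genes with a peak (-9.05).

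The 10 feedback and response genes of the pathway (Sprouty and Spred inhibitors, Dusp phosphatases, the ETS factors Etv4 and Etv5, and Egr1) were marked in all Oct4+ and DP nEnd libraries, and 10, 6 and 8 of them in Pdgfra+ nEnd replicates 1 to 3. Their median difference was 5.92 percentiles between Oct4+ and DP nEnd, and 27.4 between Oct4+ and Pdgfra+ nEnd, where all genes with a peak had -9.05 and -7.45. Spry4, Dusp6 and Etv5, named after their values were seen, were higher in Oct4+ nEnd in both pairs (limma adjusted p between 0.00194 and 0.026). Of all genes limma called 2.33% and 1.68% higher in Oct4+ nEnd in these pairs. No other gene of the list passed. Spred1 (-6.76 percentiles, Oct4+ minus DP nEnd) and Dusp4 (-4.13), named for their direction, were lower in Oct4+ than in DP nEnd. Etv5 was at 91.4 to 98.5 in Oct4+ nEnd, 36.5 to 49.1 in DP nEnd and 43.2 or below in Pdgfra+ nEnd. Dusp6, the ERK phosphatase, was at 94.9 to 98.5, 83.3 to 91.5 and 45.5 to 75.0 in the same order. Egr1, an immediate early gene, went the other way, at 36.0 to 84.9 in Oct4+ nEnd, 94.9 to 96.0 in DP nEnd and 97.2 to 97.6 in Pdgfra+ nEnd, without passing limma (adjusted p = 0.139 and 0.141 against Oct4+ nEnd).

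Between DP and Pdgfra+ nEnd, 8 of the 10 feedback genes were higher in DP nEnd without overlap and Egr1 was lower. Of all genes 2.78% were higher in DP and 4.81% higher in Pdgfra+ nEnd in this way. The count was 8 or 9 without any 1 of the 6 libraries, while the share of all genes rose to 27.1% without Pdgfra+ nEnd replicate 1. None passed limma in this pair (adjusted p = 0.294 for Spry4). The Epi markers with a peak had the same direction in this pair, except Tfcp2l1 at -0.674 percentiles (DP minus Pdgfra+ nEnd). Prdm14 had no peak in either population. Nanog, Sox2, Esrrb and Klf2, 4 of the 6 with a peak, were separated higher in DP nEnd, as was Pou5f1, and none of them passed limma. The median difference was 26.3 percentiles over the Epi markers with a peak and 21.3 over the feedback genes. The part of Epi-like cells in the feedback values was not tested. For the FGF genes themselves the same pair had no separated member.

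**Figure D4:**
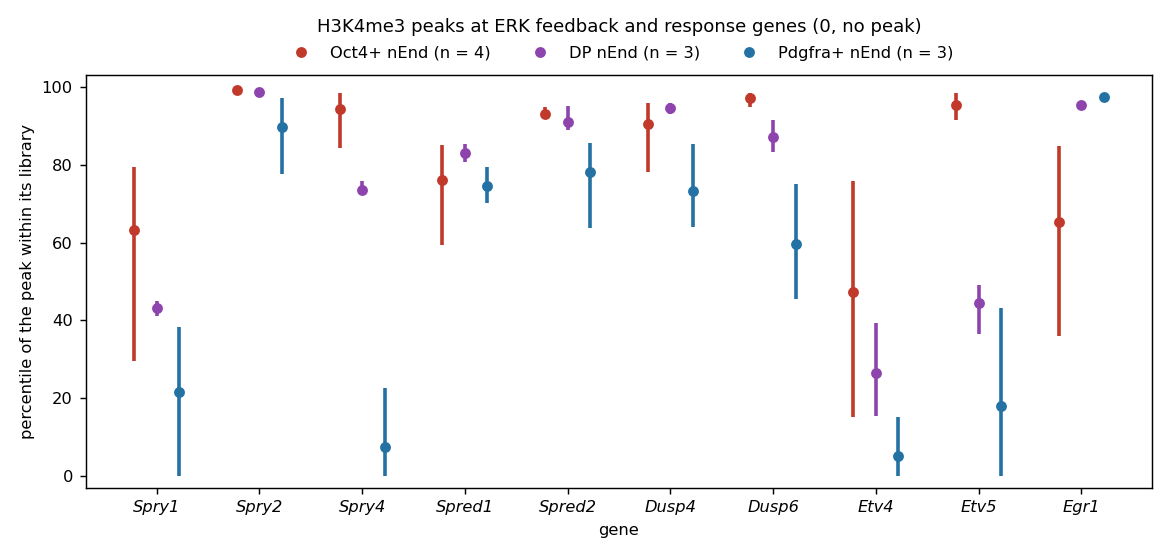
Percentile of the H3K4me3 peak at 10 ERK feedback and response genes in Oct4+ nEnd (red, n = 4), DP nEnd (purple, n = 3) and Pdgfra+ nEnd (blue, n = 3). Points are means, lines run from the lowest to the highest library, and 0 is no peak. The means of Spry4, Dusp6 and Etv5 are highest in Oct4+ and lowest in Pdgfra+ nEnd, and Egr1 is highest in Pdgfra+ nEnd at 97.2 to 97.6.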

How the data were processed

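H3K4me3 CUT&Tag libraries of Oct4+ nEnd (4), DP nEnd (3) and Pdgfra+ nEnd (3) were analysed. The authors called peaks per library with SEACR against IgG (stringent) after mapping to mm10 (bcl2fastq 2.19.1, Bowtie2, SAMtools 1.12, bedtools 2.26.0, per the labels), and made 1 consensus list per population. The deposited values are the total signal and the highest coverage of each peak, not scaled between libraries; the consensus column holds a constant and was used for presence and width only. The labels number the replicates, and the study's methods call them biological. GRCm38 was checked: 90.6% to 97.2% of peaks per library held a TSS, against 13.2% to 23.8% when shifted by 10000 bp.

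Percentiles within a library, peak widths and presence at promoters (93513 TSS) were compared per pair of populations by separation (ranges that do not overlap), by exact two-sided permutation tests, and by Fisher's exact test, with Benjamini-Hochberg adjustment over all genes with a peak in the pair and a threshold of 0.05. limma 3.58.1 (R 4.3.3, trend) on percentiles, with 0 where no peak was called, was an alternative test. Others were windows of 2500 bp, 50% coverage of a window, TSS of protein-coding transcripts, equal numbers of peaks (3477), rank by highest coverage, a replicate block and leaving out each library. Leaving out windows shared with another protein-coding gene (11.3%), and limma with the replicate block, were added after the data were seen. Scripts were tested on simulated data. The 10 genes and the lists were chosen with earlier results of these data known. All 10 genes are named. The marker lists are given mainly as counts. Of each pathway list up to 4 genes are named, those with a peak in all libraries of 1 population and none of another, else those with the highest mean percentile, and exceptions are stated. One gene that the rule gives for a pathway list is not reported here. Scripts ran in Python 3.11.15 with scipy 1.17.1, pandas 2.3.3, matplotlib 3.10.9 and numpy 2.4.6. Depth is unknown, so no counting interval is given.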

Additional observations from a re-analysis of the deposited data

Results flagged for a closer look

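The percentile of Fgfr2 in Oct4+ nEnd replicate 3 was 94.6, while replicates 1, 2 and 4 were at 99.8 or 99.9, a gap to the nearest library large enough for Dixon's criterion at 95% in a group of 4. Chance alone flags about 1 in 20 such groups. The value belongs to the start shared with Ctbp2, and the library is the one with the fewest peaks (3477). The peak there was 4638 bp wide, against 17268 to 29165 bp in the other 3. Whether list length has a part in this was not tested.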

How the results depend on the processing

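Separation of 3 members between Oct4+ and DP nEnd and between Oct4+ and Pdgfra+ nEnd gave 3 to 4 members when a library was left out, and 0 to 1 between DP and Pdgfra+ nEnd (Fgfr3 without DP or Pdgfra+ nEnd replicate 2, Fgfr2 without Pdgfra+ nEnd replicate 3). Equal numbers of peaks gave 1 member (Fgf4) between Oct4+ and Pdgfra+ nEnd, and lowered the members marked per library to 2 in DP and 1.67 in Pdgfra+ nEnd, since fewer peaks were kept. The replicate numbers do not pair the libraries: deviations of libraries with the same number correlated between -0.203 and 0.209, and in 7 of 18 comparisons a library correlated best with its own number. With the replicate block 1 member (Fgfr2) was separated between DP and Pdgfra+ nEnd, and limma with the block called 0 members, and 0 of all genes, in both pairs with Oct4+ nEnd (2203 and 2079 genes at an unadjusted p under 0.05). Of 763 values for single genes under alternatives, 17 changed sign, in differences that passed no test. For Fgfr2, Oct4+ minus DP nEnd became 0.954 (equal numbers) and 3.61 percentiles (highest coverage), and ranged from -0.83 to 0.928 when a library was left out (positive without Oct4+ nEnd replicate 3). Without shared windows it was -2607 bp in width, and Oct4+ minus Pdgfra+ nEnd was -3.99 percentiles. With shared windows kept, the latter was 0.826 over all libraries and ranged from -0.0364 (without Pdgfra+ nEnd replicate 2) to 2.13 with a library left out. The rest were DP minus Pdgfra+ nEnd. Fgf8 gave 6.32 percentiles, 33.3 percentage points of libraries and 1205 bp with the 2500 bp window, which reaches the Npm3 peak. With a library left out, Fgf3 ranged from -0.177 to 3.95 percentiles and from -877 to 1495 bp (negative without DP nEnd replicate 2). Fgfr3 width ranged from -777 to 526 bp (negative without DP nEnd replicate 2 and Pdgfra+ nEnd replicates 2 and 3). Fgf10 ranged from -0.14 (without Pdgfra+ nEnd replicate 2) to 23.4 percentiles. Fgfr4 ranged from -11.9 to 5.62 percentiles (0.73 without DP nEnd replicate 3, 5.62 without Pdgfra+ nEnd replicate 1). Where not stated, the cause was not tested. Depth is unknown, and a peak missing from a short list is not shown to be absent.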
